A study of Drosophila melanogaster with 17 samples.

Results

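The 9 genes described here belong to the larval salivary gland and were followed through Translating Ribosome Affinity Purification (TRAP) of 3 Drosophila tissues: the glue genes Sgs1, Sgs3, Sgs4, Sgs5, Sgs7 and Sgs8, the ecdysone-induced gene Eig71Ee, and the transcription factor genes sage and fkh. These are 9 of the 16977 genes counted in every sample. They were taken by name after their high levels in TRAP samples of larval axonal sections were known, so their larval values, with the number of them under the threshold of the larval fit, are a description and not a test. Tests are given for the adult tissues and for genes outside the 9. The lists of other gland genes and of markers were also drawn up with earlier results of these data known. In TRAP, ribosomes that carry a tagged subunit are pulled down from a lysate with an antibody, and the mRNAs that come with them are sequenced. The tagged subunit was Flag-GFP-RpL10, a large-subunit protein under UAS control. The larval TRAP samples (n = 3) were OK371-GAL4 driving UAS-Flag-GFP-RpL10, and their controls (n = 3) were UAS-Flag-GFP-RpL10/+ larvae at the same L3 stage. The adult TRAP samples were DIP-γ-GAL4 driving the same transgene, in heads (n = 3) and legs (n = 3), with UAS-Flag-GFP-RpL10/+ controls for heads (n = 3) and legs (n = 2), all at 2 days of age. Every group therefore carried the transgene, and a control measures what the purification brings down without a driver. OK371-GAL4 marks glutamatergic neurons, which in the larva include the motor neurons, and DIP-γ-GAL4 marks a smaller set of neurons. Each biological replicate pooled tissue from several animals. The methods state that salivary glands and the other internal organs were taken out of the larval fillets before the axonal section was cut. The anterior end of the fillet, with the ventral nerve cord, and the posterior end were cut off and discarded.

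The salivary gland of the late larva is a secretory organ given over to glue. As the steroid hormone ecdysone rises, its cells make a small set of Sgs mRNAs at very high levels, store the proteins in granules and expel them at pupariation, where the glue fixes the pupal case to its substrate. Fkh, a forkhead factor, and Sage, a basic helix-loop-helix factor largely restricted to the gland, act together on genes of the secretory cell. Eig71Ee belongs to a cluster of ecdysone-induced genes at cytological position 71E and encodes a mucin-like protein of the gland.

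Coordinates are those of the deposited tables (BDGP6). Sgs8 (FBgn0003378, chromosome 3L, 11508967 to 11509394), Sgs7 (FBgn0003377, chromosome 3L, 11509861 to 11510247) and Sgs3 (FBgn0003373, chromosome 3L, 11512221 to 11513402) lie within 4436 bases of each other, with 466 bases between Sgs8 and Sgs7. Sgs1 (FBgn0003372) is on chromosome 2L from 4937409 to 4941423. Sgs4 (FBgn0003374, chromosome X, 3250089 to 3251040) lies within the span of dnc, a cAMP phosphodiesterase gene. Sgs5 (FBgn0003375) is on chromosome 3R from 17595362 to 17596112. Eig71Ee (FBgn0004592) is on chromosome 3L from 15654472 to 15656010, sage (FBgn0037672) on chromosome 3R from 9262654 to 9264142, and fkh (FBgn0000659) on chromosome 3R from 28580976 to 28585264. Of the 9, 8 overlap no other gene of the table, and Sgs4 overlaps dnc alone.

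The 17 libraries held between 29512310 and 88324615 gene counts. Larval libraries differed in how many genes were seen: 5504 of 16977 genes were at 0 in control 1 and 6086 in TRAP 2, against 782 to 3163 in the other 4. TRAP 2 also had a scaling factor of 0.515 by the trimmed mean of M-values (TMM) method, against 0.986 to 1.34 in the other larval libraries. Values below are CPM, the counts scaled to a common library size after this factor, and log2 fold changes are TRAP over control from the edgeR quasi-likelihood fit, each given ± its standard error, with a threshold of 0.05 on the adjusted p. A count of 3, taken as the floor of a library, corresponded to between 0.0298 and 0.105 CPM. No replicate pair agreed within sampling noise (lowest chi-square per gene 60.5), so none was merged.

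In larval axonal sections all 6 glue genes were far higher in TRAP samples than in controls. Sgs7, which encodes one of the small glue proteins, was the most abundant: it was at 39.1, 78.9 and 37.7 CPM in controls 1 to 3 and at 1275, 18483 and 1989 CPM in TRAP 1 to 3. The lowest TRAP sample was 16.2 times the highest control, and TRAP 2 stood well above the other TRAP samples. Its log2 fold change was 7.13 ± 1.28. By counts Sgs7 ranked 2498, 1351 and 2383 among the 16977 genes in the controls and 48, 12 and 52 in the TRAP samples.

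Sgs8, the other small glue protein gene, was at 9.96, 23.4 and 11.9 CPM in controls and at 834, 6211 and 1214.5 CPM in TRAP samples. Its groups were the most widely separated of the 9 genes, with the lowest TRAP sample 35.7 times the highest control and a log2 fold change of 7.51 ± 1.04. Sgs3, a mucin-like glue protein gene, was at 7.41, 26.7 and 12.6 CPM in controls and at 679.7, 5417 and 1158 CPM in TRAP samples (log2 fold change 7.28 ± 1.03). The 3 clustered genes thus kept the same order of samples by CPM, TRAP 2 above TRAP 3 above TRAP 1, and their groups did not overlap. Both traits were shared by all 9 genes and are not particular to the cluster. Sgs3, Sgs7 and Sgs8 are related genes, and how reads that match more than one of them were assigned is not given in the sources used here.

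Sgs5 was at 7.36, 33.4 and 16.7 CPM in controls and at 334, 4145 and 690.0 CPM in TRAP samples (log2 fold change 6.49 ± 1.02). Sgs4 was at 3.95, 13.7 and 5.17 CPM in controls and at 142, 1762 and 164 CPM in TRAP samples (log2 fold change 6.50 ± 0.98). For both glue protein genes TRAP 2 was 12.4 times TRAP 1 by CPM, and the groups did not overlap. That ratio includes the scaling factors and was smaller by share of all counts. Sgs5 took 0.0448% in TRAP 1 and 0.213% in TRAP 2, and Sgs4 took 0.0190% and 0.0908%. The counting of strand and introns is not given in the sources used here, so reads of the overlapping dnc could be assigned to Sgs4. dnc itself was at a mean of 167 CPM in TRAP and 169 CPM in control samples. By library it was at 45.0, 228 and 234 CPM in controls and at 254, 58.7 and 189 CPM in TRAP samples. It was thus lowest among the TRAP samples in TRAP 2, where Sgs4 was highest. The part of dnc reads in the Sgs4 values was not tested.

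Sgs1, the longest of the glue genes with 3950 exon bases, was the least abundant of them. It was at 0.0849, 0.785 and 0.923 CPM in controls, which are 6, 79 and 92 counts, and at 13.1, 119 and 37.7 CPM in TRAP samples. The groups did not overlap, and the log2 fold change was 6.55 ± 0.87. Together the 6 Sgs genes took 0.00669%, 0.0201% and 0.0111% of all counts in the controls and 0.439%, 1.86% and 0.518% in the TRAP samples.

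Eig71Ee followed the glue genes. It was at 4.82, 12.9 and 7.87 CPM in controls and at 196.6, 1685 and 344 CPM in TRAP samples (log2 fold change 6.44 ± 0.86). As for the glue genes other than Sgs1, control 2 was the highest control. TRAP 2 was the highest TRAP sample, and the groups did not overlap.

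Of the regulators, sage was clearly separated and fkh much less so. sage was at 2.83, 0.259 and 0.231 CPM in controls and at 26.4, 99.7 and 48.6 CPM in TRAP samples (log2 fold change 5.73 ± 0.87). Its highest control was control 1, unlike for the glue genes, and the lowest TRAP sample was 9.34 times that control. fkh was at 0.0141, 1.11 and 0.983 CPM in controls, the first being a single count, and at 2.17, 7.57 and 2.24 CPM in TRAP samples. Its groups did not overlap, but its lowest TRAP sample was only 1.95 times its highest control, and its log2 fold change of 2.50 had a standard error of 1.51.

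**Figure D1:**
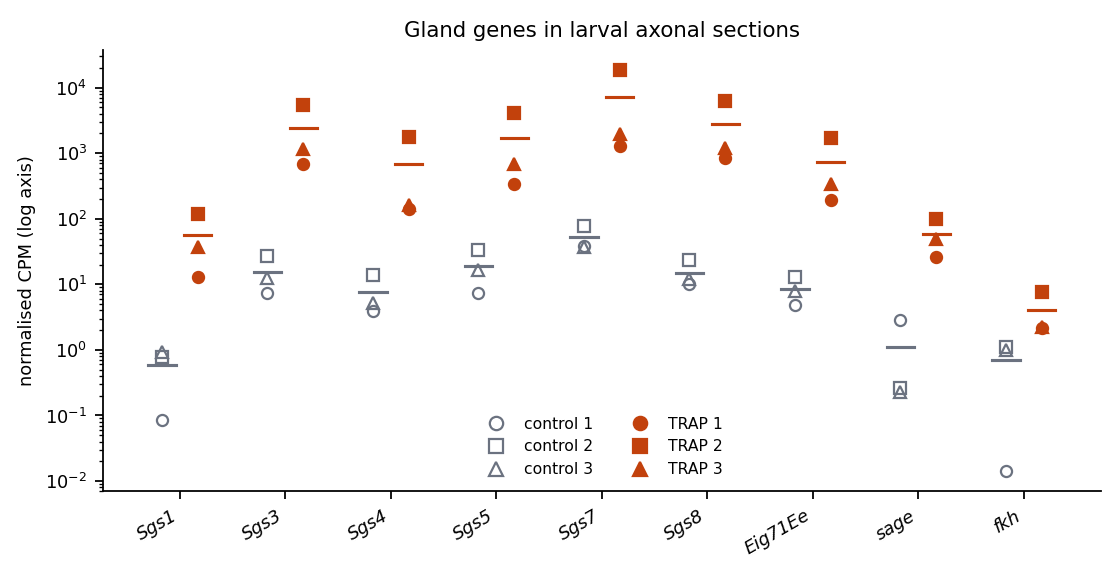
Normalised CPM (log axis) of the 9 gland genes in each larval axonal section library, with controls as open grey symbols, TRAP samples as filled orange symbols and a bar at each group mean. All TRAP samples lie above all controls for every gene, TRAP 2 is the highest throughout, and the gap is smallest for fkh, whose TRAP samples sit between 2.17 and 7.57 CPM.

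For all 9 genes the 3 TRAP samples all exceeded the 3 controls, against 4.53% of the 16702 genes tested in larvae, and the same held when counts were scaled by the library total alone. Of the 9, 8 were under the threshold of 0.05 and higher, fkh being the exception, against 0.234% of all genes that were higher and 0.012% that were lower. The median log2 fold change of the 9 was 6.50, against 0.25 over all genes tested. Because these genes were chosen on this contrast, these figures describe the choice and support nothing further. The number under the threshold depended on control 1 and on the filter on low counts. It was 3 without control 1, 7 without control 3 and still 8 without any other single library. It was 0 when only genes with a count in every sample, or genes kept by edgeR's filterByExpr, were fitted. Without TRAP 2 the log2 fold changes were 4.18 for Sgs4, 4.63 for Sgs5, 4.84 for Sgs7, 4.86 for Eig71Ee, 4.97 for sage, 5.30 for Sgs1, 5.76 for Sgs3, 5.95 for Sgs8 and 1.48 for fkh. Without control 1 that of sage was 7.91. In pull-downs from tissue sections, more cells of a kind, more RNA per cell and more tagged ribosomes per cell cannot be told apart. The paper reports leaky expression of the transgene without a driver, which the controls share.

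Per kilobase of exon the levels spanned more than 4 orders of magnitude. In TRAP samples the mean level was 22582 CPM per kb for Sgs7, 7669 for Sgs8, 2709 for Sgs5, 2181 for Sgs3, 724 for Sgs4, 499 for Eig71Ee, 40.8 for sage, 14.3 for Sgs1 and 0.932 for fkh. Sgs7 was first and Sgs8 second in all 6 libraries. Among the TRAP samples, Sgs5 and Sgs3 exchanged places in TRAP 1 (526 and 613 CPM per kb). Sgs4 and Eig71Ee did so in TRAP 3 (172 and 232 CPM per kb). The other neighbours kept their order within each TRAP sample, but this does not mean that their ranges were apart. Sgs7 ran from 3973 to 57578 CPM per kb over the TRAP samples and Sgs8 from 2324 to 17301. In controls the order of the first 6 genes was the same in each library, from 162 CPM per kb for Sgs7 to 5.75 CPM per kb for Eig71Ee on average, while sage, Sgs1 and fkh changed places among themselves.

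The shares of the glue genes in their summed counts are given as a description, without a test. Sgs7 made up 44.4% to 57.6% of the summed Sgs counts in controls and 37.9% to 51.1% in TRAP samples. Sgs5 took 10.8% to 19.6% in controls and 10.2% to 13.1% in TRAP samples, again with overlap. Sgs3 took 10.9% to 15.1% and 15.0% to 22.1%, and Sgs1 0.125% to 1.09% and 0.330% to 0.718%. The remaining genes differed without overlap in opposite directions. Shares of a single sum depend on each other, so these differences are not separate results. Sgs8 was at 13.2% to 14.7% in controls and at 17.2% to 25.4% in TRAP samples. Sgs4 was at 5.82% to 7.74% in controls and at 3.12% to 4.88% in TRAP samples. By share, Sgs7 came first in all 6 libraries, and the order after it was Sgs8, Sgs3, Sgs5 in control 1 and the 3 TRAP samples but Sgs5, Sgs3, Sgs8 in controls 2 and 3. The summed levels were 67.8 to 176.8 CPM in controls and 3279, 36137 and 5253 CPM in TRAP samples.

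**Figure D2:**
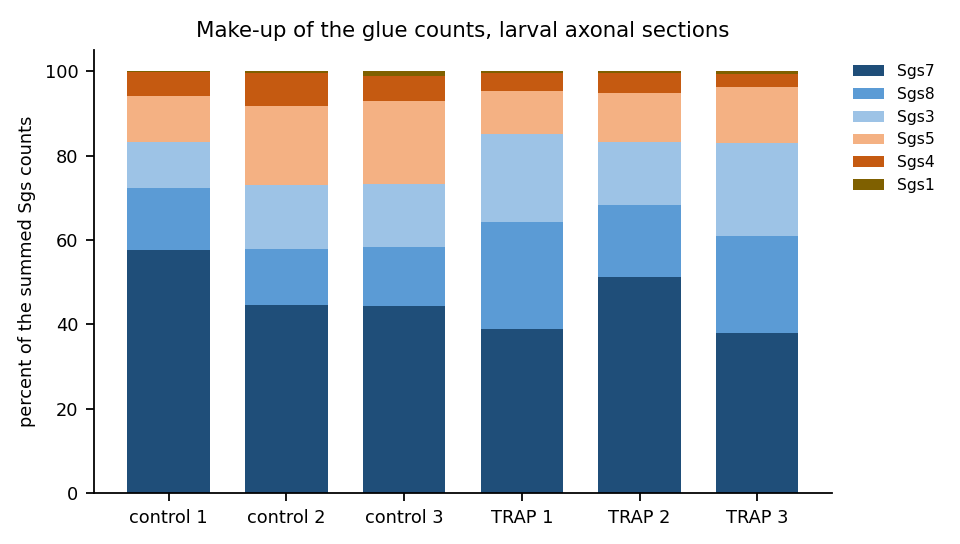
Share of each glue gene in the summed counts of the 6 Sgs genes (percent, stacked to 100) for each larval library. Sgs7 is the largest part in all 6 libraries, Sgs8 is larger in the TRAP bars (17.2% to 25.4%) than in the control bars (13.2% to 14.7%), and Sgs4 is smaller.

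Few gland genes outside the 9 passed the test in larvae. Of 33 such genes in 4 lists (other glue genes, the other Eig71E genes, gland transcription factors, and enzymes of secretion and glycosylation), 1 was higher by the edgeR test and 0 were lower (0.234% and 0.012% of all genes), with 2 at an unadjusted p under 0.05. Their median log2 fold change was 0.85, against 0.25 over all genes, and 4 of the 33 had no overlap and higher TRAP samples, as did 4.53% of all genes. In the other direction, all TRAP samples lay below all controls for 1 gene in each list other than the glue list, which had 0. That held for 5.76% of all genes. The gene that rose was Sgs5bis, listed as CG7587 (FBgn0038523), a glue gene beside Sgs5. It was at 1.004, 3.26 and 0.241 CPM in controls and at 10.4, 106.2 and 7.71 CPM in TRAP samples (log2 fold change 4.78 ± 0.97, adjusted p = 0.0393, edgeR). Without control 1 its edgeR adjusted p was 0.298, and without TRAP 2 it was 0.41 with a log2 fold change of 2.41. DESeq2 also called 1 of the 33, but a different one: it called Eig71Ea and gave no adjusted p for CG7587.

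The 4 new-glue genes ng1 to ng4, which lie on chromosome X as Sgs4 does, did not pass the test. ng3, the most abundant of them, had 344, 6 and 9 counts in controls and 134, 104 and 27 in TRAP samples. Control 1 thus held more ng3 than any TRAP sample. Of the 10 other genes named Eig71E, 0 passed the edgeR test, and all were low. Eig71Ea, the highest, was at 0.0424, 0.0497 and 0.311 CPM in controls and at 0.409, 7.68 and 1.03 CPM in TRAP samples (log2 fold change 4.47 ± 1.91, adjusted p = 0.718, edgeR). Eig71Eg had 134 counts in TRAP 2 and at most 19 in any other library. Eig71Ed had 45 counts in TRAP 3 and at most 9 elsewhere. Of the Eig71E genes, Eig71Ee was thus the only one above 10 CPM in a TRAP sample.

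Of the 11 gland transcription factor genes, 0 passed the test. CrebA, a bZIP factor that raises secretory capacity, was at 70.9, 52.8 and 71.5 CPM in controls and at 109.7, 122.5 and 88.2 CPM in TRAP samples. Its groups did not overlap, at a log2 fold change of 0.71 ± 0.41 (adjusted p = 0.808, edgeR). Xbp1, a factor of the unfolded protein response, had a log2 fold change of -0.92 ± 0.51 and hth, a homeodomain cofactor, one of -0.19 ± 0.56, with overlapping groups for hth. Among 7 genes of secretion and glycosylation 0 passed: ps was at -0.33 ± 0.48, pgant5 at -0.68 ± 0.39 and PH4alphaSG2, a prolyl hydroxylase subunit named for the gland, at 0.97 ± 0.48 on the log2 scale. Of 16 ecdysone response genes 0 passed, with a median log2 fold change of 0.04. The most abundant of these were br at -0.05 ± 0.68, Eip71CD at 0.71 ± 0.70 and Eip78C at 0.38 ± 0.60. The direction of br and Eip78C changed with the scaling, as did neither sage nor any glue gene.

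The genes beside the 9 were then examined. Within 5 kb lay 28 other genes, of which 3 were higher by the edgeR test and 0 lower (0.234% and 0.012% of all genes), with a median log2 fold change of 0.50 against 0.25 over all genes. All 3 were next to Sgs5 or in the 71E cluster. The sets overlap, since CG7587 and the Eig71E genes near Eig71Ee were also counted among the other gland genes above. CG7587 ends 304 bases before Sgs5. CG7606 (FBgn0040565, chromosome 3R, 17596536 to 17598453), which starts 423 bases beyond it, was at 3.66, 8.23 and 2.38 CPM in controls and at 306, 1964 and 148 CPM in TRAP samples (log2 fold change 7.40 ± 0.99, adjusted p = 0.000945, edgeR). CG43084 (FBgn0262530, chromosome 3L, 15650852 to 15651392), in the 71E cluster, had 7, 1 and 0 counts in controls and 492, 2300 and 332 in TRAP samples (log2 fold change 9.87 ± 1.24, adjusted p = 0.000559, edgeR). For both genes no TRAP sample came near a control. With 1 library left out the log2 fold change ran from 5.36 (without TRAP 2) to 8.06 for CG7606 and from 7.59 (without TRAP 2) to 12.25 (without control 1) for CG43084, and both still passed. With only genes seen in every sample, or with filterByExpr, neither passed where it was fitted (edgeR adjusted p between 0.0947 and 0.129).

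Other close neighbours did not follow. CG33500 lies 63 bases from Sgs8 and CG33272 lies 75 bases from Sgs7, yet their mean levels in TRAP samples were 0.0195 and 0.0924 CPM. None of the 6 genes around sage passed the test, with log2 fold changes between -0.41 and 0.73, and none of the 4 around Sgs1, between -0.99 and 0.41. dnc, around Sgs4, was at -0.02 ± 0.60. Pig1, the gene next to Sgs4, was at 2.78 ± 1.27 (adjusted p = 0.727, edgeR), and MRE23, the only gene within reach of fkh, at 0.71 ± 1.61.

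**Figure D3:**
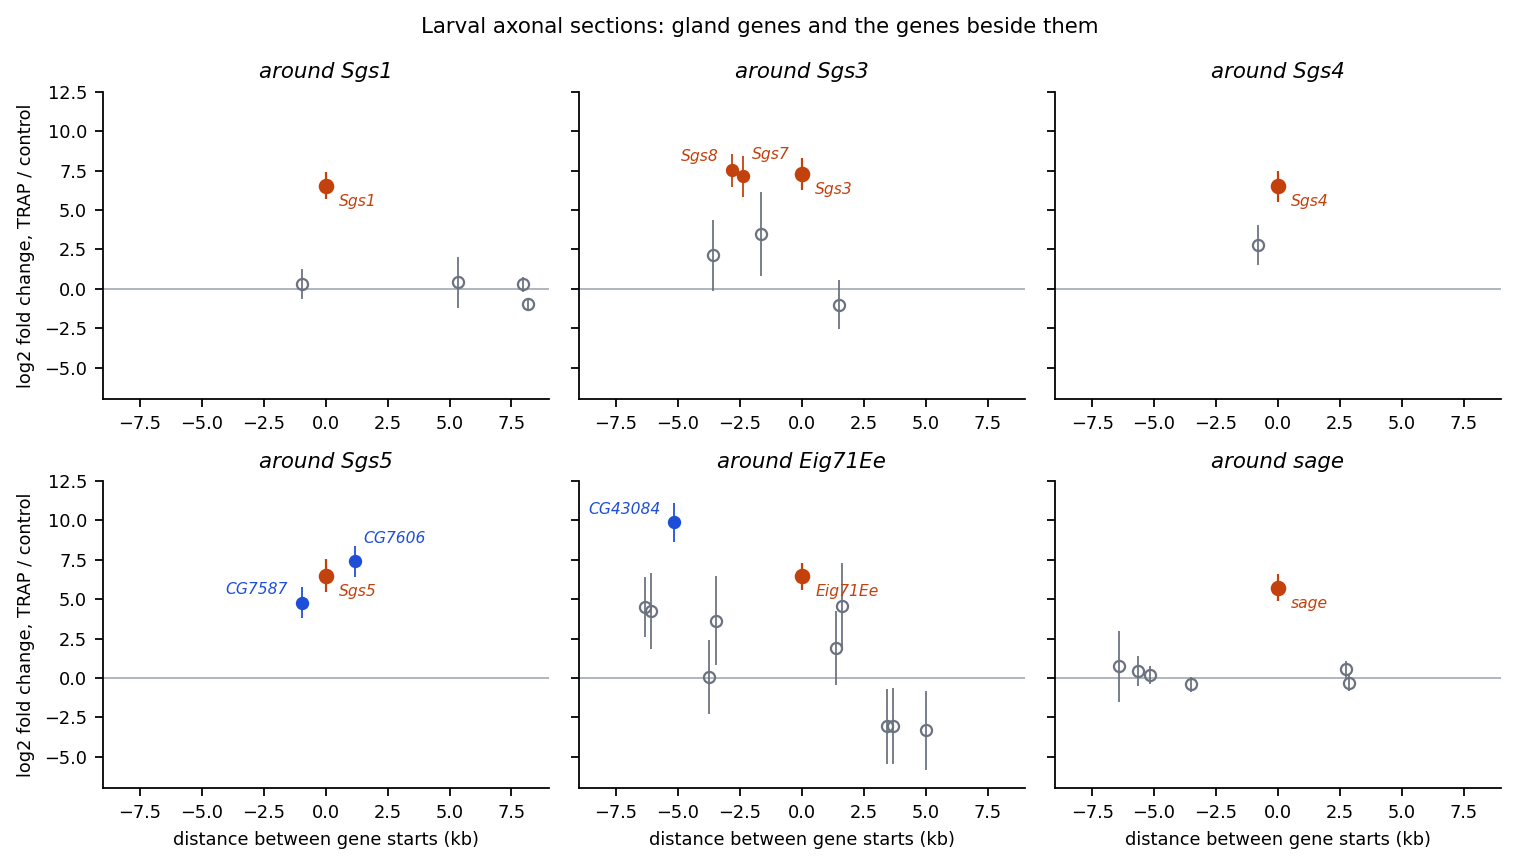
Log2 fold change (TRAP over control, larval axonal sections, bars show the standard error) of gland genes and the genes within 5 kb, against the distance between gene starts in kb, for 6 loci. Gland genes are orange, other genes past the threshold are blue (CG7587, CG7606 and CG43084) and genes that did not pass are open grey circles, most of them near 0 around Sgs1 and sage. A gene whose start lies beyond the axis (dnc) is not drawn.

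Several genes with no stated function shared the larval profile of the glue genes. Among 5652 genes averaging 10 CPM or more over the 6 larval libraries, likeness was measured as the root mean square difference (in log2 CPM, each profile centred on its own mean) from the average of the 6 Sgs genes. By this measure Sgs5 (0.257), which is itself part of that average, and Eig71Ee (0.264), which is not, were the closest. The closest gene outside the 9 was CG42460 (0.286), at 0.721, 2.60 and 1.95 CPM in controls and 76.9, 494 and 84.7 CPM in TRAP samples. CG12715 (0.582), CG31698 (0.655), CG7606 (0.722), CG43679 (0.833) and CG44956 (0.908) came next, followed by CG34279 (1.09), CG15404 (1.121), CG7587 (1.42) and CG43084 (1.49). CG12715, CG43679 and CG34279 overlap other genes. sage was at 1.68, and fkh fell under the level minimum. All these genes were higher in each TRAP sample than in each control, which the measure itself favours, since it is computed on the same 6 libraries.

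Markers of other tissues were read beside these values. Larval cuticle genes, which mark epidermis, were at a sum of 61569 to 197227 CPM in controls and 157535, 581203 and 157289 CPM in TRAP 1 to 3, so that TRAP 2 was the highest for cuticle as for glue. These CPM include the scaling factor, 0.515 for TRAP 2. By share of all counts the cuticle genes took 19.5%, 8.23% and 8.06% in controls 1 to 3 and 21.1%, 29.9% and 15.5% in TRAP 1 to 3. TRAP 1 thus lay above control 1 by share but below it by CPM. Of the 5 cuticle genes 1 passed, Lcp65Ag1, at 2.11, 2.15 and 2.08 CPM in controls and 11.3, 336.7 and 3.57 CPM in TRAP samples (log2 fold change 5.79 ± 1.13, adjusted p = 0.0275, edgeR). This call was lost without TRAP 2 (log2 fold change 1.58, adjusted p = 0.598, edgeR), without control 1 (0.252), with library size alone (0.374) and with either stricter filter (0.384 and 0.466). Midgut protease and amylase genes summed to 3.47 to 12.3 CPM in controls and to 43.1, 14.0 and 27.0 CPM in TRAP samples, all above the controls but with 0 of 11 genes past the test. Fat body genes summed to 1673 to 2001 CPM in controls and 749 to 860 CPM in TRAP samples, and for 5 of 6 genes all TRAP samples lay below all controls, against 5.76% of genes tested. Muscle (18202 to 72018 CPM in controls, 12138 to 26550 CPM in TRAP), haemocyte (103 to 168 and 117 to 338 CPM) and glial genes (417 to 557 and 321 to 665 CPM) overlapped. The muscle genes still leaned lower, with a median log2 fold change of -1.10 against 0.25 over all genes tested. For 3 of the 12 all TRAP samples lay below all controls, and 0 passed the test. No marker in these lists was at 0 in all 6 libraries. The part of any of these tissues in the glue values was not tested.

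The neuronal list, the target of the driver, did not separate the larval groups. The sections were cut to hold motor neuron axons without the ventral nerve cord, where the paper places the cell bodies. The 7 genes of the list summed to 14.0 to 33.9 CPM in controls and to 240.2, 9.07 and 27.3 CPM in TRAP 1 to 3, and 0 of 7 passed the test. Their median log2 fold change was 1.48, against 0.25 over all genes tested, with VGlut at 4.04 ± 1.43 (adjusted p = 0.546, edgeR). TRAP 2, with the highest glue values, had the lowest neuronal sum. VGlut, the vesicular glutamate transporter, had 4, 170 and 27 counts in controls and 2188, 31 and 13 counts in TRAP samples.

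**Figure D4:**
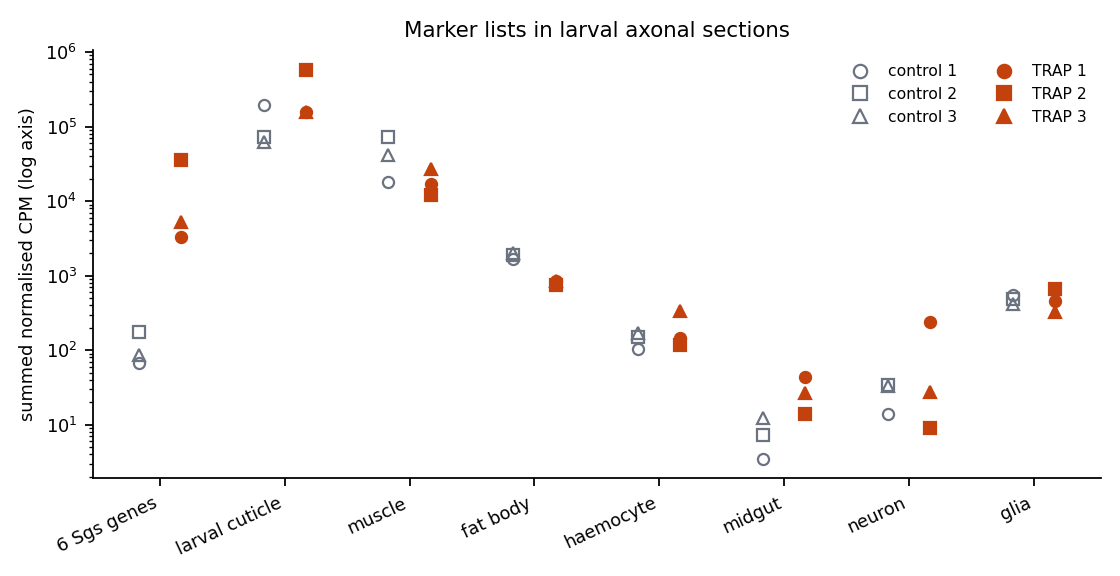
Summed CPM (log axis) of the 6 Sgs genes and of 7 lists of tissue marker genes in each larval library, controls open and TRAP samples filled. The Sgs sum separates the groups most widely (67.8 to 176.8 CPM against 3279 to 36137 CPM), the fat body sum is lower in TRAP samples, and the neuronal sum of TRAP 2 (9.07 CPM) is the lowest of the 6.

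In adult heads the glue genes were near the floor. The 6 Sgs genes together had 15, 60 and 38 counts in controls 1 to 3 and 8, 118 and 252 counts in TRAP 1 to 3, and the highest single value was 97 counts of Sgs3 in TRAP 3 (2.43 CPM). Sgs3 was at 0.159, 0.624 and 0.478 CPM in controls and at 0.106, 0.949 and 2.43 CPM in TRAP samples. TRAP 3 was the highest library for the glue genes other than Sgs4 and Sgs5, TRAP 1 lay within or below the controls' range, and the groups overlapped for each glue gene. TRAP 3 also had the fewest genes without a count (508, against 1160 in TRAP 2, 2519 in TRAP 1 and 1966 to 3181 in controls). High counts of rare transcripts in TRAP 3 are thus not particular to gland genes. Sgs4 had a single count, in 1 control. The fitted log2 fold changes of the other 5 Sgs genes lay between 1.39 ± 1.69 for Sgs7 and 1.80 ± 1.85 for Sgs1, and none passed the edgeR test.

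Eig71Ee in heads had 0, 2 and 28 counts in controls and 2, 50 and 143 in TRAP samples. It was highest in the same library as the glue genes, TRAP 3, with overlapping groups (log2 fold change 2.41 ± 1.64, adjusted p = 0.358, edgeR). sage was at 1.87, 3.68 and 0.414 CPM in controls and at 3.48, 5.38 and 2.46 CPM in TRAP samples, which also overlapped (0.92 ± 0.73, adjusted p = 0.427, edgeR). Scaled by the library total alone its groups did not overlap (adjusted p = 0.202, edgeR).

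fkh was the only one of the 9 that passed the edgeR test in heads, where it was higher in TRAP samples. It was at 4.83, 6.003 and 4.43 CPM in controls and at 11.4, 15.5 and 8.46 CPM in TRAP samples. All TRAP samples lay above all controls, with a log2 fold change of 1.21 ± 0.31 (adjusted p = 0.0232, edgeR). Among all 16638 genes tested in heads, 7.23% were higher by this test and 9.41% lower, and in 16.3% the TRAP samples all exceeded the controls, so that 1 of 9 is near both shares. Over the alternative fits the edgeR or DESeq2 adjusted p of fkh ran from 0.000995 to 0.641, and it was lost without control 1 (0.0836), control 3 (0.0845) or TRAP 2 (0.149) and in the fit of all 3 tissues. The 7 neuronal markers were all higher in head TRAP samples (sums of 701 to 872 CPM in controls and 1234 to 4549 CPM in TRAP), and their part in the fkh value was not tested.

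Most other gland genes did not pass the test in heads. Of 33, 1 was higher (hth, log2 fold change 0.62 ± 0.18, adjusted p = 0.0401, edgeR) and 1 lower (pip, a sulphotransferase gene, -1.11 ± 0.31, adjusted p = 0.0335, edgeR), with 6 at an unadjusted p under 0.05. Both calls were lost in the fit of all 3 tissues (0.599 and 0.252) and without any 1 of the controls, TRAP 1 or TRAP 2, where the edgeR adjusted p was 0.0987 to 0.159 for hth and 0.0534 to 0.132 for pip, and pip also with library size alone (0.256). The median of the 33 was 0.64, against 0.32 over all genes. ng3, ng4 and CG7587 had at most 11 counts in a head library. Of the Eig71E genes, Eig71Ea had 15 and 17 counts in TRAP 2 and TRAP 3, Eig71Ec 4 and 28, and Eig71Ed 0 and 17, against at most 2 counts of any of these in a control.

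Several ecdysone response genes passed in heads. Of 16, 4 were higher and 0 lower, against 7.23% and 9.41% of all genes. br, which encodes zinc finger factors of metamorphosis, was at 2.26, 3.92 and 4.58 CPM in controls and at 24.1, 22.6 and 25.8 CPM in TRAP samples (log2 fold change 2.75 ± 0.29, adjusted p = 0.000709, edgeR). Eip78C, a nuclear receptor gene, rose by 2.96 ± 0.59 (adjusted p = 0.00747, edgeR), Hr3, another, by 1.15 ± 0.23 (adjusted p = 0.00833, edgeR) and EcR, the ecdysone receptor gene, by 0.62 ± 0.18 (adjusted p = 0.0423, edgeR) on the log2 scale. In the fit of all 3 tissues none of these 4 passed (edgeR adjusted p 0.216, 0.0805, 0.462 and 0.517). EcR was also lost with the replicate block (0.0594) and without any 1 of the controls, TRAP 1 or TRAP 2 (0.0669 to 0.190). The difference between heads and larvae was not tested.

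In adult legs the glue genes were all but undetected. Sgs1, Sgs3 and Sgs4 were at 0 in all 5 leg libraries, where 3 counts correspond to between 0.0358 and 0.0461 CPM. Of the others the highest value was 22 counts of Sgs5, in TRAP 2, which with 8 counts in TRAP 3 was its whole signal. Sgs7 had 7 counts in control 2 and 16 and 1 in TRAP 2 and TRAP 3, Sgs8 had 3 counts in TRAP 2, and Eig71Ee had 6 counts in control 2. These values are too low for a difference to be detectable at this depth.

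The regulators were measurable in legs. sage was at 6.87 and 3.51 CPM in controls and at 8.24, 1.73 and 1.09 CPM in TRAP samples (log2 fold change -0.49 ± 0.78, adjusted p = 0.879, edgeR). fkh was at 8.35 and 2.63 CPM in controls and at 4.63, 3.79 and 1.35 CPM in TRAP samples (-0.75 ± 0.64, adjusted p = 0.755, edgeR). The groups overlapped for both, and in 11.8% of the genes tested in legs all TRAP samples exceeded the controls. Of the 6 genes that passed the filter in legs, edgeR called 0, DESeq2 0, and 0 were at an unadjusted p under 0.05, against 0.113% of 14200 genes called higher and 0.12% called lower. Of the 33 other gland genes 19 were seen in legs, and 0 passed, with 0 at an unadjusted p under 0.05 and a median log2 fold change of -0.02. All 5 other glue genes were at 0 in every leg library, while Xbp1 (417 CPM in TRAP samples), ps (478 CPM), exd (66.8 CPM), hth (39.0 CPM), pip (20.2 CPM) and pgant5 (19.9 CPM) were all expressed. Of the Eig71E genes other than Eig71Ee, Eig71Ea had 2 counts in control 1 and Eig71Ek 1 count in TRAP 1, with 0 elsewhere. Of the 16 ecdysone response genes 15 were seen in legs and 0 passed, and the most abundant, Eip71CD, was at 149 and 157 CPM in controls and 148, 168 and 153 CPM in TRAP samples.

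The 2 regulators could be compared between the adult tissues. The log2 fold change of fkh was lower in legs than in heads by 1.92 (leg minus head -1.92 ± 0.73, unadjusted p = 0.0209), which did not pass after adjustment over 16706 genes (adjusted p = 0.132, edgeR). For sage the difference was -1.38 ± 1.18 (adjusted p = 0.589, edgeR). Neither can be said to differ between heads and legs. By the methods, head replicates came from males and leg replicates from both sexes and far more flies. Tissue, sex and input therefore cannot be told apart in this comparison. The authors also excluded a leg control replicate for DNA contamination.

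**Figure D5:**
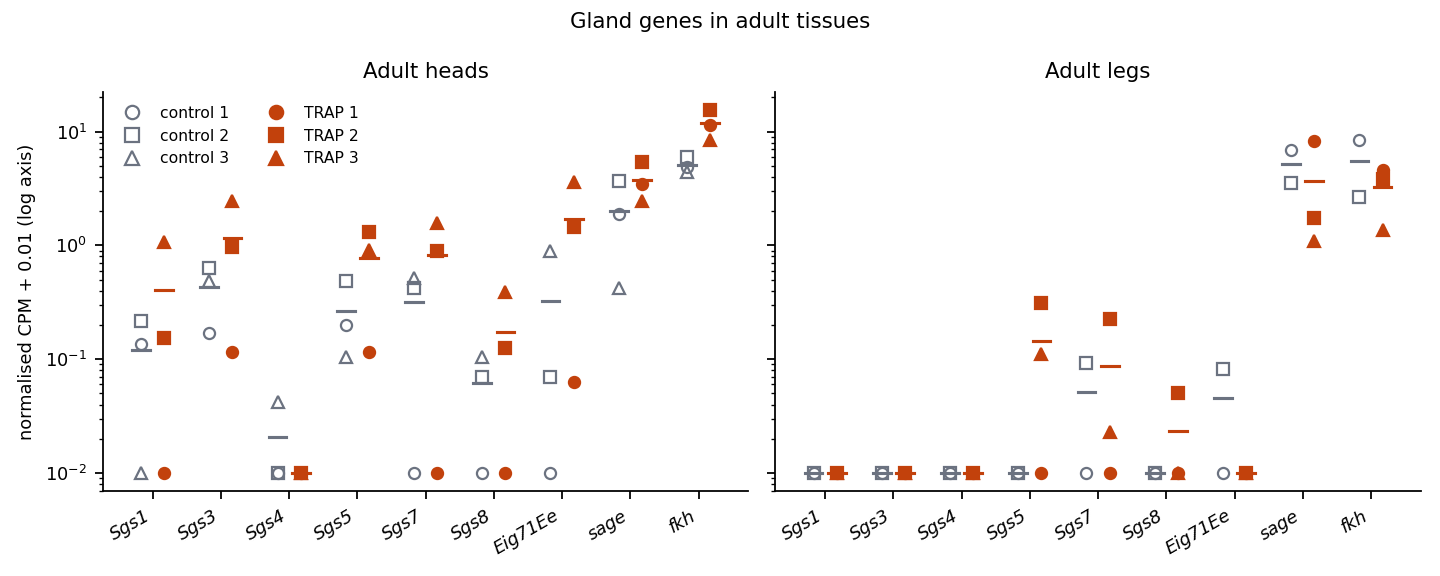
Normalised CPM plus 0.01 (log axis, so that 0 is drawn at the bottom) of the 9 gland genes in adult heads and adult legs, controls open and TRAP samples filled, with a bar at each group mean (legs have 2 controls). The glue genes and Eig71Ee stay under 4 CPM in every adult library, and only fkh in heads has all TRAP samples (8.46 to 15.5 CPM) above all controls (4.43 to 6.003 CPM).

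Set side by side, the larval and adult values of the same genes are far apart, though the tissues were processed and scaled separately and no test was made between them. In the highest adult library the 6 Sgs genes took 0.000854% of counts, in head TRAP 3, whereas the lowest larval control held 0.00669%. For sage the larval TRAP samples (26.4 to 99.7 CPM) were above all adult libraries (0.414 to 8.24 CPM). For fkh the larval TRAP samples, at 2.17 to 7.57 CPM, lay below the head TRAP samples (8.46 to 15.5 CPM) and overlapped the head controls and both leg groups.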

How the data were processed

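Trimmed reads (Trim Galore) were aligned by the authors with HISAT2 2.2.1 to BDGP6 (Ensembl annotation) and handled with SAMtools 1.12, and the deposited values are raw gene counts from SeqMonk in 1 table per tissue. How strand, introns and read pairs were counted is not given in the sources used here. Libraries were made from purified RNA by full-length cDNA amplification without molecular identifiers, so counts are not independent molecules, and floors of 3 counts cover counting error only.

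Groups follow the sample titles. Each tissue was fitted separately in R 4.3.3 with edgeR 4.0.16 (TMM, trended dispersion, quasi-likelihood F-test, two-sided, Benjamini-Hochberg adjustment over the genes counted in any sample of the tissue, threshold 0.05). Standard errors are the log2 fold change over the square root of F. DESeq2 1.42.0 was an alternative. The other alternatives were further scalings, stricter filters, each replicate left out, a replicate block and 1 fit of all 3 tissues. The heads and legs were joined in an interaction fit for sage and fkh. The fit was tested on simulated counts. log2 CPM used a prior count of 2. Exon lengths came from Ensembl release 115, whose gene coordinates matched the tables for 16755 of 16977 genes. Sgs5bis and pgant9 appear in the tables as CG7587 and CG30463 and were matched by FlyBase ID.

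The 9 genes, the gland lists and the marker lists were chosen with earlier results of these data known. Named besides the 9 are, from each gland list, the genes under the threshold in a tissue or else up to 3 with the highest mean CPM; the genes within 5 kb; and the 10 closest in larval profile. VGlut and the remaining list genes given with values were named after their values were seen.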

Additional observations from a re-analysis of the deposited data

How the results depend on the processing

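Under every alternative fitted, the larval log2 fold changes of the 9 genes stayed positive. Their number under the threshold, 8, was 0 when only genes with a count in every sample were kept (9728 genes, of which edgeR called 0 in all) and 0 with filterByExpr, and 3 to 8 with 1 replicate left out, the lowest without control 1. DESeq2 had 7, with no adjusted p for Sgs4. Their median of 6.50 ranged from 4.86 (without TRAP 2) to 7.16 with 1 replicate left out and from 5.63 to 6.63 otherwise. The call of 1 other gland gene in larvae became 0 with library size alone, with either stricter filter and in the fit of all 3 tissues, and was 0 to 1 with 1 replicate left out. The call of 1 gene in heads became 0 in the fit of all 3 tissues and was 0 to 1 with 1 replicate left out. In legs it was 0 throughout. Library size alone moved the median of all genes from 0.25 to 0.02 in larvae and from 0.32 to 0.81 in heads, where it called 2909 genes higher and 463 lower in place of 1203 and 1565.

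Replicate numbers do not show pairing: same-numbered larval samples correlated at -0.51, -0.27 and -0.004 in their deviations, head samples at 0.28, 0.13 and 0.08, and leg samples at 0.04 and 0.06. With the replicate block the larval median was 6.17 with 8 genes under the threshold, and the calls among the 9 in heads and legs and among the other gland genes in larvae kept their counts. Over all genes the block changed the calls, higher and lower, from 39 and 2 to 44 and 5 in larvae, from 1203 and 1565 to 1406 and 1723 in heads, and from 16 and 17 to 12 and 7 in legs.

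Directions that reversed all belong to values that did not pass the test. In larvae br was 0.033 with DESeq2 size factors and with DESeq2 and -0.51 to 0.12 with 1 replicate left out, and Eip78C was -0.081 with library size alone, -0.054 with the replicate block and -0.37 to 0.89 with 1 left out. With 1 replicate left out, Eip71CD ran from -0.60 to 1.504 and Eig71Eg from -1.65 to 9.60 in larvae, Sgs1 from -0.70 to 2.59 and ng3 from -1.90 to 4.48 in heads, and in legs Sgs7 from -2.41 to 5.56, sage from -1.88 to 0.071, fkh from -1.37 to 0.31, exd from -0.012 to 0.11, pgant5 from -0.14 to 0.16 and Eip71CD from -0.029 to 0.070. In the fit of all 3 tissues the leg values of exd, pgant5 and Eip71CD were -0.027, -0.072 and -0.049. Those of the 9 with no library above 3 counts in a tissue have no value in these comparisons, nor do genes without a DESeq2 adjusted p under that tool. The cause of these changes was not tested, beyond the smaller number of samples or genes that an alternative leaves. Values of CG7606, CG43084 and Lcp65Ag1 and the larval number under the threshold were added to the alternatives after the data were seen.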
